A study of Homo sapiens with 42 samples.

Results

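MV4;11 leukaemia cells that carried a CRISPR guide against ENL were compared with the same line carrying a control guide. The libraries were chosen by their titles and number 6 of the 42 in the series. MV4;11 is an established human myelomonocytic leukaemia line with a fusion of MLL (KMT2A) to AF4 and an internally duplicated FLT3. Cells with the control guide (Negsg) are given the genotype WT, and cells with ENL guide 1 (ENLsg1) or ENL guide 2 (ENLsg2) the genotype ENL KO. Each guide has 2 libraries, and no drug is given for any of the 6. The study as a whole follows MS41, a degrader of ENL, in MV4;11 cells, in culture and in vivo, and in the line SEMK2. For comparison, 3 libraries of MV4;11 cells in DMSO and 3 in 100 nM MS41, both WT and both taken at 24 h, were used beside the guides. The guide sequences, the nuclease, the time since the guides were delivered, and whether the cells were a pool or clones are not given in the sources used here. Whether the paired libraries of a guide were separate cultures is not given either, and p-values reflect only how these libraries vary, which may be technical.

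ENL, the product of MLLT1, has a YEATS domain that binds acetylated histone H3. It sits in the super elongation complex, which releases paused RNA polymerase II, and it also contacts the H3K79 methyltransferase DOT1L. Leukaemias driven by MLL fusions depend on it, and the genes for which it is best known there are the HOXA cluster, MEIS1, MYB and MYC, which hold myeloid cells in a progenitor state.

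The guide libraries held 77216662 to 87813453 counts in genes, and 17984 genes had enough counts to be tested. Levels are given as CPM, the count of a gene scaled to the size of its library, changes as log2 fold changes, each followed by its standard error (SE), and adjusted p-values come from the quasi-likelihood test of edgeR with Benjamini-Hochberg adjustment over all genes tested. A gene is called, or said to rise or fall, when its adjusted p is below 0.05. Levels are not comparable between genes, since they are not divided by length. The share of counts on the mitochondrial genome was 3.19% and 3.58% in the control libraries and 3.82% to 4.66% in the ENL guide libraries, which do not overlap; its part in the results below was not tested. Of the markers chosen for the line, SPI1, CEBPA, CD33, LYZ, CSF1R, CD4, ITGAM and FLT3 were present in every library, and MPO was present at 8.93 to 14.2 CPM.

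The targeted gene came first. Its lower transcript level with guide 2 than with guide 1 was known beforehand, so its values describe the libraries. They are no independent check of the labels. MLLT1 (ENSG00000130382) lies on chromosome 19, 6210379 to 6279948 of GRCh38. It stood at 223 and 249.8 CPM with the control guide, 181 and 190.1 with guide 1, and 123 and 128 with guide 2. All 4 ENL guide libraries lay below both control libraries, and both guide 2 libraries lay below both guide 1 libraries. The mean of both guides gave -0.63 (SE 0.06, adjusted p = 6.4e-05). Guide 1 alone gave -0.35 (adjusted p = 0.0122) and guide 2 alone -0.92 (adjusted p = 1.8e-05). The guide 1 fall was no longer called without its first library (adjusted p = 0.125), without its second (adjusted p = 0.0585) or once a trend with GC content was removed (adjusted p = 0.0631). Transcript thus remained with both guides; a guide can disrupt the protein without lowering its transcript, and ENL protein was not measured here.

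Of the 30 measured genes for ENL and its reader and elongation partners, 2 fell and 0 rose, 1 of them the targeted gene; 4.98% of all genes tested fell. The count was 5 without the first control library and 1 without the second control library, the first guide 1 library or the first guide 2 library. Besides MLLT1 the fall was in DOT1L, the H3K79 methyltransferase, at 242 and 243 CPM with the control guide, 189.5 and 192 with guide 1, and 189 and 224 with guide 2. Its change was -0.29 (SE 0.07, adjusted p = 0.0214), and the call was lost without the second control library, the first guide 1 library or the first guide 2 library (adjusted p of 0.0573 to 0.0772). The paralogue MLLT3 (AF9) was at 0.12 (adjusted p = 0.749) and the fusion partner gene AFF1 (AF4) at 0.07 (adjusted p = 0.578). KMT2A, whose promoter drives the fusion, was at 0.00 (adjusted p = 0.984).

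Over the whole transcriptome the mean of both guides called 1853 of 17984 genes, which is 10.3%. Of these 957 were higher (5.32% of genes tested) and 896 lower (4.98%). These shares are the ones to set beside every count of list members below. Larger changes leaned upwards: 213 called genes rose at least 2-fold (1.18%) and 46 fell at least 2-fold (0.256%). The median log2 change over all genes was -0.002. The scaling of the libraries to each other largely sets this median, so a general change in RNA would not show in it. Of the 1853 called genes 956 had all 4 ENL guide libraries above both controls and 894 had all 4 below, where 17.4% and 19.3% of all genes tested did. The number called depended on single libraries: it was 1015 without the second control library and 940 without the second guide 2 library. The replicate spread corresponded to a biological coefficient of variation of 9.21% with 3 residual degrees of freedom. Protein-coding genes made up 851 of the genes that rose and 847 of those that fell, and 30 long intergenic RNAs rose and 13 fell of 948 tested. The plot of levels shows MLLT1 and 11 other genes described below.

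**Figure D1:**
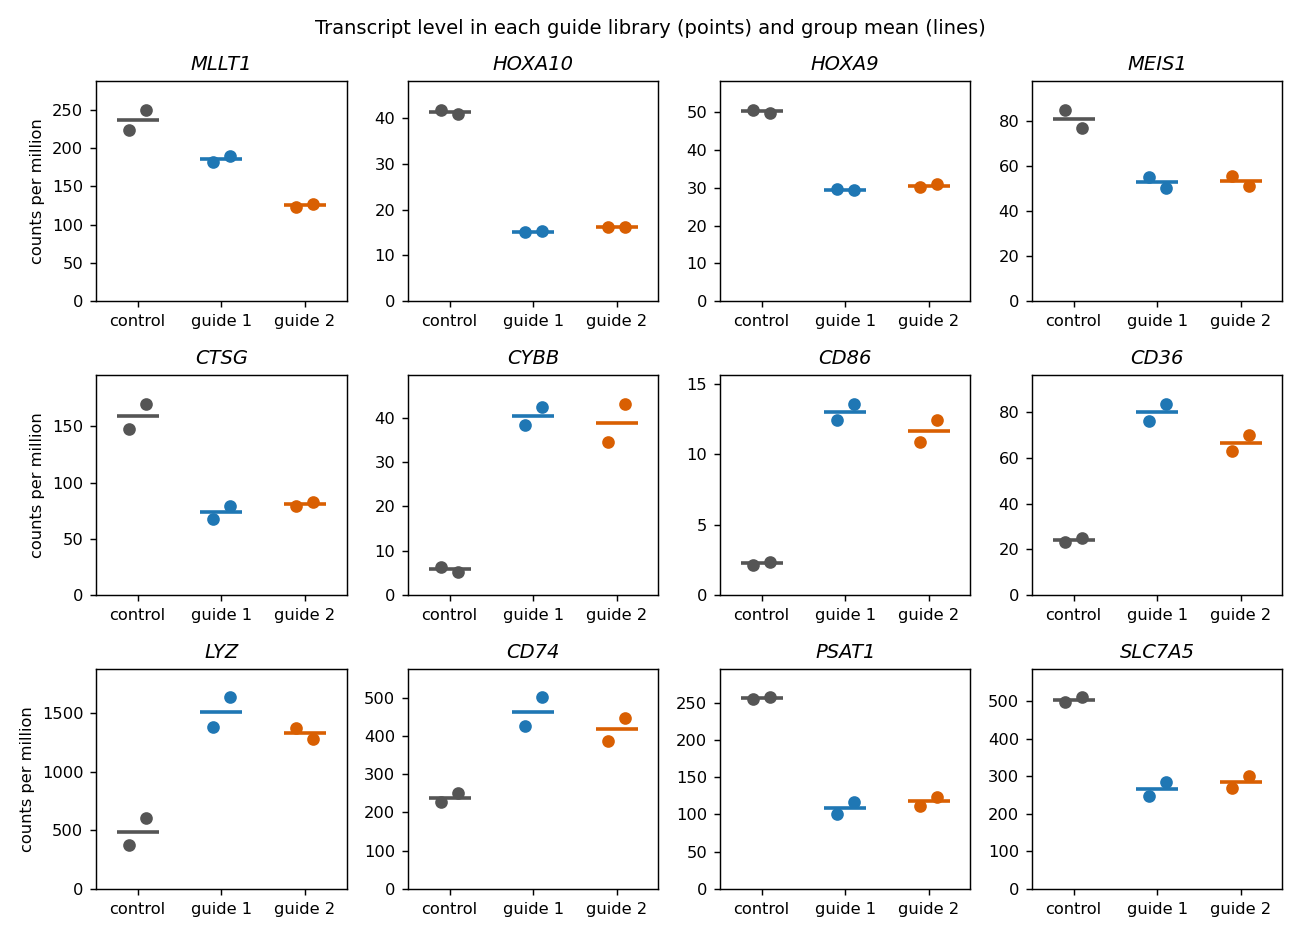
Each panel plots 1 gene in the 6 guide libraries, as CPM on a linear axis from 0; points are libraries and lines the mean of the 2 libraries of a guide. MLLT1 steps down from control to guide 1 to guide 2. For the other 11 genes both ENL guides lie apart from the control guide and nearer to each other than to it. CD36 is higher with guide 1 than with guide 2.

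The HOXA cluster encodes homeobox factors that sustain MLL-rearranged leukaemia. Of its 14 genes and antisense transcripts on the list, 5 had enough counts; 3 of them fell and 0 rose. HOXA10 (chromosome 7, 27170591 to 27180261) stood at 41.8 and 40.9 CPM with the control guide, 15.1 and 15.3 with guide 1, and 16.1 and 16.3 with guide 2, a change of -1.40 (SE 0.07, adjusted p = 2.8e-07). HOXA9 stood at 50.6 and 49.8 CPM with the control guide, 29.6 and 29.4 with guide 1, and 30.1 and 30.9 with guide 2, a change of -0.74 (SE 0.06, adjusted p = 1.4e-05). HOXA11 stood at 7.92 and 7.79 CPM with the control guide, 4.11 and 3.81 with guide 1, and 4.7 and 3.06 with guide 2, a change of -1.0 (SE 0.15, adjusted p = 0.0016). In all 3 the ENL guide libraries lay below both controls with no overlap, which for HOXA10 the rule for the largest falls required. The annotated span of HOXA9 (27162435 to 27175180) overlaps that of HOXA10, so the split of counts between them is uncertain. In bulk RNA, fewer cells that express a gene and less RNA per cell cannot be told apart. HOXA13 (0.05, adjusted p = 0.958) did not pass. HOXA7, HOXA6 and HOXA5 were among the 9 that were too low to test.

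Among 27 measured HOX cofactors and other targets of MLL fusions, 10 fell and 1 rose, with a median of -0.20. Beside these counts, 4.98% of all genes tested fell and 5.32% rose. The largest fall among the 4 most significant was in PITX1, a homeobox gene, at 541 and 561 against 317, 306, 341 and 328 CPM (control against guides 1 and 2), a change of -0.77 (SE 0.06, adjusted p = 7.7e-06). MEIS1, the cofactor that binds DNA with HOXA9, stood at 85.2 and 76.9 against 55.3, 50.6, 55.6 and 51.2 CPM in the same order and changed by -0.61. MEF2C, a MADS-box factor, changed by -0.54, and the homeobox gene HMX2 by -0.53 (adjusted p = 0.00035). All 4 genes had every ENL guide library below both controls. The member that rose was GPR183, an oxysterol-guided migration receptor, at 6.85 and 9.51 against 26.9, 29.6, 27.1 and 18.8 CPM, a change of 1.64 (SE 0.20, adjusted p = 0.0058). Its call was lost when edgeR paired libraries by replicate number (adjusted p = 0.0743). MYC did not pass the test (-0.23, adjusted p = 0.0689).

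Of 15 measured progenitor genes 4 fell and 1 rose; 2 fell without the second guide 1 library. FLT3, the receptor tyrosine kinase, was at 724 and 734 CPM with the control guide, 545 and 589 with guide 1, and 554 and 602 with guide 2, a change of -0.35 (SE 0.07, adjusted p = 0.00571). LAPTM4B, a lysosomal membrane protein, was at -0.40 (adjusted p = 0.00908). The transcription factor SOX4 was at -0.30, a call lost without the second control library (adjusted p = 0.166), the second guide 1 library (0.0512) or the first guide 2 library (0.0659). CD33, the sialic acid lectin of myeloid cells, was higher at 0.29, and lost its call without the second control, first guide 1 or first guide 2 library (adjusted p of 0.0503 to 0.0575). CD34 was too low to test. Beside these counts, 4.98% of all genes tested fell and 5.32% rose, so the 1 rise is near the general share.

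Phagocytes make superoxide with an oxidase of membrane subunits (CYBB, CYBA) and cytosolic subunits (among them NCF1 and NCF4), and they digest what they take up with lysozyme, cathepsins and RNases. Of 14 measured genes of this kind 10 rose and 0 fell, with a median of 0.47. CYBB (chromosome X, 37780011 to 37813461), the catalytic subunit, stood at 6.38 and 5.3 against 38.4, 42.4, 34.6 and 43.2 CPM, a change of 2.76 (SE 0.12, adjusted p = 6e-07). NCF1 (0.88) shares most of its sequence with pseudogenes, so its counts are uncertain, and its call was lost without the second control library (adjusted p = 0.0562). NCF4 was at 0.33, with the call lost without the second control, first guide 1 or first guide 2 library (adjusted p of 0.055 to 0.151). The partner subunit CYBA was at -0.12 (adjusted p = 0.308) and RAC2, the GTPase that activates the oxidase, at 0.03 (adjusted p = 0.792); neither passed the test.

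LYZ (chromosome 12, 69348341 to 69354234) stood at 375 and 605 CPM with the control guide, 1382 and 1636 with guide 1, and 1375 and 1281 with guide 2. The groups did not overlap, but the control libraries differed from each other by more than the ENL guide libraries did on the log2 scale. Its change of 1.53 (SE 0.23, adjusted p = 0.0232) was no longer called when any 1 of the 4 ENL guide libraries was left out (adjusted p of 0.051 to 0.0665). The LYZ call was also lost without the filter on low counts. The lysosomal and secreted proteins GRN (0.61), CTSB (0.39) and CTSS (0.38) rose, as did the RNases RNASE6 (0.63) and RNASE2 (0.55). RNASE6, for example, stood at 40.8 and 44.1 against 67.8, 68.5, 64.2 and 62.5 CPM (adjusted p = 6.4e-05).

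Of 11 measured granule genes of promyelocytes 3 rose and 2 fell, where 5.32% of all genes tested rose and 4.98% fell. Without the first guide 2 library 1 rose and 1 fell. CTSG, the granule protease cathepsin G, fell by 1.04 on the log2 scale, at 148 and 170.1 against 67.4, 79.5, 79.3 and 83.1 CPM (adjusted p = 1.2e-05). PRSS57, a related protease, was at -0.33, a call lost without the second control or the first guide 2 library (adjusted p of 0.0848 and 0.0599) and once the GC trend was removed. RNASE3, the eosinophil cationic protein, rose by 0.39 (adjusted p = 0.00394), at 22.2 and 23.6 against 30.7, 30.6, 30.1 and 29 CPM. Myeloperoxidase, MPO, was at 0.40 and complement factor D, CFD, at 0.33, and both lost their calls when single libraries were left out (adjusted p of up to 0.147 and 0.0993). The neutrophil proteases ELANE (0.07, adjusted p = 0.633), PRTN3 (0.07, adjusted p = 0.61) and AZU1 (0.14, adjusted p = 0.359) did not pass.

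Of 48 measured receptors and integrins of the monocyte surface 25 rose and 0 fell, with a median of 0.53. CD36, the scavenger receptor for oxidised lipids (chromosome 7, 80369575 to 80679277), stood at 23 and 24.8 CPM with the control guide, 76 and 83.6 with guide 1, and 63 and 69.8 with guide 2. Its change was 1.61 (SE 0.08, adjusted p = 2.8e-07), and both guide 1 libraries lay above both guide 2 libraries. CD86, the costimulatory ligand for T cells, stood at 2.16 and 2.37 against 12.4, 13.6, 10.9 and 12.4 CPM, and CLEC12A, an inhibitory lectin, at 4.18 and 4.94 against 15.4, 14.4, 13.6 and 16.2 CPM (changes of 2.44 and 1.71). The G-CSF receptor CSF3R changed by 0.95, at 55.2 and 53 against 112, 105, 99.6 and 102 CPM. ITGAM, the alpha chain of the CR3 integrin known as CD11b, stood at 7.23 and 5.66 CPM with the control guide, 22.7 and 23.7 with guide 1, and 17.5 and 24.4 with guide 2, a change of 1.77 (SE 0.16, adjusted p = 0.00027). In each of these genes all 4 ENL guide libraries exceeded both controls. For CD36, CD86, CLEC12A and ITGAM, named among the 15 largest rises, that rule required it. Members at the other end included CD14 (-0.18, adjusted p = 0.882), the co-receptor for bacterial lipopolysaccharide, and ITGAL (0.00, adjusted p = 0.985), singled out after their values were seen.

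Promoter sequences are shown for 2 of these receptors to place the ETS motif GAGGAAGT, a sequence of the kind bound by the myeloid factor PU.1. The windows are the 250 bases before the gene start in the RefSeq annotation of GRCh38.p14, printed in the sense of the gene, and capitals mark GAGGAAGT or its reverse complement ACTTCCTC. Both genes were picked after their values were seen, and they are the only list members whose window holds the motif. It is in 2 of the 43 promoters of the receptor list (4.65%), and not in those of CD36, CD86, CLEC12A, CSF3R or ITGAM. TYROBP encodes the signalling adaptor of several activating receptors (chr19:35908296-35908545, minus strand), and TLR4 the receptor for lipopolysaccharide (chr9:117704153-117704402, plus strand).
TYROBP: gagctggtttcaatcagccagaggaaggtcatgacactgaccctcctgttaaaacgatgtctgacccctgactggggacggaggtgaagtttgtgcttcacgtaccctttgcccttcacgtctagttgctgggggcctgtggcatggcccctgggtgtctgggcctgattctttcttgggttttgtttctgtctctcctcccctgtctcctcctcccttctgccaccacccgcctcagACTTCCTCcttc
TLR4: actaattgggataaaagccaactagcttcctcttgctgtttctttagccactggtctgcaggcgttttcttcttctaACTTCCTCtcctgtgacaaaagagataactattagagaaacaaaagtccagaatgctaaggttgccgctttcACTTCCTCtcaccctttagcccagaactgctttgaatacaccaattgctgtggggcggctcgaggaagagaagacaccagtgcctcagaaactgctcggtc
TYROBP stood at 89.9 and 91.6 CPM with the control guide, 138 and 138 with guide 1, and 124 and 123 with guide 2, a change of 0.53 (SE 0.06, adjusted p = 0.00011). TLR4 stood at 18.5 and 15.4 CPM with the control guide, 33.3 and 29.2 with guide 1, and 30.4 and 23.3 with guide 2, a change of 0.77 (SE 0.12, adjusted p = 0.00491). On either strand the motif was in 2.13% of 27305 RefSeq promoters of this length and in 2.4% of the 11257 that belong to genes tested here. It was in 38 of 686 promoters of genes that rose (5.54%) and in 18 of 699 of genes that fell (2.58%). A match is a stretch of letters and not evidence of binding.

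Of 24 measured transcription factors of myeloid fate 6 rose and 0 fell, where 5.32% of all genes tested rose and 4.98% fell. Without the filter on low counts, or with a replicate block, 2 fell. The transcription factor GFI1 was counted with the progenitor genes above and fell (-0.33, adjusted p = 0.0335). Its call was lost under another scaling of the libraries and when some single libraries were left out. IRF5, a factor of macrophage cytokine genes, rose by 0.53, at 58.3 and 58.9 against 90.3, 85.1, 81.5 and 81 CPM, and TFEC, a macrophage factor of the MiT family, by 0.68, at 35.1 and 30.5 against 60.1, 51.6, 51.9 and 47 CPM. BCL6, a transcriptional repressor, stood at 0.687 and 0.706 CPM with the control guide, 2.3 and 2.9 with guide 1, and 1.72 and 2.82 with guide 2, a change of 1.8 (SE 0.25, adjusted p = 0.0007). PRDM1, a transcriptional repressor that promotes terminal differentiation, rose by 1.10 (adjusted p = 0.00088). The lineage factors fixed as markers of the line did not pass: SPI1, which encodes PU.1, was at 0.08 (adjusted p = 0.418, 95% interval -0.05 to 0.21) and CEBPA at 0.06 (adjusted p = 0.599).

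Of 14 measured S100, annexin and related genes 6 rose and 0 fell, where 5.32% of all genes tested rose and 4.98% fell. ANXA1, a phospholipid-binding protein that dampens inflammation, stood at 34.5 and 37.8 against 102, 110.2, 92.4 and 104 CPM, a change of 1.5 (SE 0.07, adjusted p = 2.9e-07). S100A11 (0.34) and ANXA5 (0.32) rose less. S100A9, a subunit of the calprotectin of neutrophils and monocytes, stayed low at 0.24 to 1.42 CPM; its call (1.59) was lost without the second control or the first guide 2 library (adjusted p of 0.154 and 0.0579).

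MHC class II molecules present peptides to CD4 T cells. Their genes are switched on together by the co-activator CIITA, which is recruited to W, X and Y boxes by RFX and NF-Y, the Y box being a CCAAT sequence. Of 15 measured genes of this pathway 9 rose and 0 fell, with a median of 1.14; 6 rose without the first control library. Promoters are shown as examples that hold CCAAT. They are those of the invariant chain CD74 (chr5:150412911-150413160, minus strand), the peptide loader HLA-DMA (chr6:32953098-32953347, minus strand) and HLA-DPB1 (chr6:33075740-33075989, plus strand). These genes were higher in every ENL guide library, as were 11 of the 15 measured members in all. HLA-DPA1 was so too, and its window holds no CCAAT. The windows are again the 250 bases of RefSeq, with capitals at CCAAT or its reverse complement ATTGG.
CD74: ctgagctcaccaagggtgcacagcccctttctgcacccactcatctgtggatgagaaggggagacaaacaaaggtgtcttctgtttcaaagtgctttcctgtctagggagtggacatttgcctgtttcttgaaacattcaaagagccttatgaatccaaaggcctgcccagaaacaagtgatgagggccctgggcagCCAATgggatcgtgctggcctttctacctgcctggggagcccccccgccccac
HLA-DMA: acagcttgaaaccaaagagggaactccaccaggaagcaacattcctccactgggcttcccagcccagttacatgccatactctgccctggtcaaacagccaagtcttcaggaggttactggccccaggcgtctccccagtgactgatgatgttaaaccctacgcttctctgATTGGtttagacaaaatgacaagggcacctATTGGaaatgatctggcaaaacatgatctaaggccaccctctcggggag
HLA-DPB1: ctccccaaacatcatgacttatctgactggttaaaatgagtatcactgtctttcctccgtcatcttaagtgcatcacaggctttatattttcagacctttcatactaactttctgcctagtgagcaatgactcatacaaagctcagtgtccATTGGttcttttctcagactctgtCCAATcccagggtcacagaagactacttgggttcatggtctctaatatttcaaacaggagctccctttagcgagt
CCAAT was on either strand in 11 of 14 MHC class II promoters (78.6%) and in 7 of the 8 (87.5%) with a matched window whose genes rose. It was in 33% of all 27305 promoters and in 34.8% of those of genes tested. Among genes that rose the share was 28.7%, and among genes that fell 35.9%. A high share is not particular to this list, since mitosis genes were at 80%. The box is a known feature of this family, and a match describes letters, not binding.

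CIITA (chromosome 16, 10866222 to 10943021) stood at 2.95 and 4.08 CPM with the control guide, 14.8 and 20.8 with guide 1, and 10.9 and 19.9 with guide 2. Both libraries numbered 2 of the ENL guides were above those numbered 1, and all 4 were above both controls. Its change was 2.24 (SE 0.37, adjusted p = 0.0371), but the call was lost when any control or guide 1 library was left out (adjusted p of 0.0958 to 0.244). The CIITA call was also lost without the filter on low counts. CD74 (chromosome 5, 150401637 to 150412929) stood at 227 and 251 CPM with the control guide, 426 and 501 with guide 1, and 388 and 447 with guide 2, a change of 0.88 (SE 0.09, adjusted p = 0.00012). HLA-DMA stood at 4.86 and 4.22 CPM with the control guide, 10.9 and 11.4 with guide 1, and 8.84 and 9.05 with guide 2, a change of 1.14 (SE 0.11, adjusted p = 6.2e-05), and its partner HLA-DMB was at 1.83, lost without the first control or the second library of either ENL guide (adjusted p of 0.0512 to 0.0711).

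The chains that hold peptide ranged from near absence to low levels. HLA-DPA1 stood at 0.201 and 0.226 against 1.52, 2.24, 1.14 and 1.71 CPM, and HLA-DPB1, at 0.0592 and 0.0399 against 0.369, 0.853, 0.31 and 0.423 CPM, changes of 2.93 (adjusted p = 0.00012) and 3.20 (adjusted p = 0.00373). These are changes from a very low start. HLA-DQB1 rose by 1.25, HLA-DRB1 by 0.87 and HLA-DRB5 by 0.87. The DRB genes resemble each other and vary between people, so the split of counts between them is uncertain, and the HLA-DRB5 call was lost without the first control or the second guide 2 library (adjusted p of 0.0633 and 0.0655). HLA-DRA had a large but variable difference (2.43, adjusted p = 0.112), at 3.47 and 7.17 against 24.7, 41.1, 17.2 and 32.2 CPM, and was not called. The RFX subunits that recruit CIITA did not pass the test: RFX5 was at -0.06, RFXANK at -0.10 and RFXAP at -0.08 (adjusted p of 0.34 to 0.683).

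Beyond these families, the rule of the 15 largest rises named further genes. LSP1, an actin-binding protein of leucocytes, stood at 4.37 and 2.84 against 32.9, 29.6, 30.6 and 28.2 CPM, the largest change of that set at 3.06. JAML, an adhesion molecule (2.17), and BASP1, a membrane-linked signalling protein (2.05), followed. IPCEF1, a partner of cytohesins in ARF signalling (chromosome 6, 154154496 to 154356792), stood at 3.78 and 3.44 against 14.6, 12.8, 12.7 and 12.5 CPM, a change of 1.86 (SE 0.11, adjusted p = 1.1e-06). NFE2, a transcription factor of megakaryocytes and red cells (chromosome 12, 54292111 to 54301121), stood at 7.21 and 6.79 against 23.8, 23.5, 22 and 22.3 CPM, a change of 1.71 (SE 0.09, adjusted p = 2.9e-07). ST3GAL6, a sialyltransferase (chromosome 3, 98732236 to 98821201), stood at 4.83 and 4.59 against 15, 14.3, 14.2 and 15.4 CPM, a change of 1.65 (SE 0.10, adjusted p = 1.1e-06). For these 3 the ENL guide libraries spanned a narrow range. Their place above both controls was required by the rule that named them. CES1, a carboxylesterase of monocytes and liver, was at 1.86, at 16.8 and 28.5 against 81.6, 96.3, 74.8 and 75.9 CPM; it shares sequence with its neighbour CES1P1, and the call was lost without any 1 of the 4 ENL guide libraries (adjusted p of 0.098 to 0.117).

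Serine is built from a glycolytic intermediate by PHGDH, PSAT1 and PSPH; SHMT2 and ALDH1L2 pass its carbon through mitochondrial folate; CBS and CTH carry its sulphur-bound skeleton to cysteine. Of 18 measured enzymes 7 fell and 0 rose, with a median of -0.19, where 4.98% of all genes tested fell and 5.32% rose. The promoter of PSAT1 (chr9:78296875-78297124, plus strand) is printed because this gene had the smallest adjusted p of the list and holds CCAAT (capitals) 3 times within the window.
PSAT1: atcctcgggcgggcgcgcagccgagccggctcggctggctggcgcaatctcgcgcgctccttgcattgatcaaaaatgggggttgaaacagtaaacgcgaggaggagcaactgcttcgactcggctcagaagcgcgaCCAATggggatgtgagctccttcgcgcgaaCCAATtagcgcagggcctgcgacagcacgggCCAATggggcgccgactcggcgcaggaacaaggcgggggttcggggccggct
PSAT1 (chromosome 9, 78297143 to 78330093) stood at 255 and 257 CPM with the control guide, 101 and 117 with guide 1, and 111 and 124 with guide 2, a change of -1.18 (SE 0.07, adjusted p = 1.1e-06). CCAAT was in 11 of 15 promoters of the listed enzymes (73.3%), against the 33% of all promoters given above. Of the 4 enzymes that fell and have a window 3 held it. Over all genes that fell the share was 35.9%, and over those that rose 28.7%. Lists ran from 7.69% (T and NK cell markers) to 83.3% (HOXA cluster), with mitosis genes at 80%, so a high share is not particular to these enzymes.

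PSPH, the last enzyme of serine synthesis, stood at 35.4 and 34.4 CPM with the control guide, 23.1 and 27.6 with guide 1, and 25.5 and 26.1 with guide 2, a change of -0.45 (SE 0.08, adjusted p = 0.00367). SHMT2 stood at 269.6 and 269.6 CPM with the control guide, 198 and 198 with guide 1, and 209.5 and 202 with guide 2, a change of -0.42 (SE 0.06, adjusted p = 0.00054). ALDH1L2 (-1.02), CBS (-1.19) and CTH (-1.06) fell as well, and for each the ENL guide libraries lay below both controls. For ALDH1L2 and CBS, named among the 15 largest falls, that rule required it. CBS has a near-identical copy in the GRCh38 assembly, so its counts are uncertain. PHGDH, the entry enzyme, stood at 111 and 117 CPM with the control guide, 43.5 and 58.1 with guide 1, and 49.2 and 71.8 with guide 2. Its change of -1.04 (SE 0.20, adjusted p = 0.0492) sat at the edge of the threshold, and was lost without the first control, the second control or the first guide 1 library (adjusted p of 0.199, 0.348 and 0.0688). The PHGDH call was also lost with DESeq2's size factors and without the filter on low counts. The mitochondrial folate enzymes MTHFD2 (-0.20, adjusted p = 0.0629) and MTHFD1L (-0.20, adjusted p = 0.085) did not pass.

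These enzymes overlap with the programme of ATF4, the factor that raises amino acid supply under stress. Of 31 measured ATF4 targets and amino acid transporters 17 fell and 0 rose, with a median of -0.51. SLC7A5 and SLC3A2, the light and heavy chains of the large neutral amino acid exchanger, changed by -0.87 and -0.60. SLC1A5, the glutamine carrier, stood at 373 and 376 against 234, 240.2, 257 and 239.7 CPM, a change of -0.63 (SE 0.06, adjusted p = 4.1e-05). GARS1, the glycine tRNA synthetase, stood at 331 and 340.4 against 182, 217, 207 and 214 CPM, a change of -0.71 (SE 0.07, adjusted p = 6.4e-05). ATF4 transcript itself was at 464 and 408 CPM with the control guide, 288 and 311 with guide 1, and 294 and 335 with guide 2, a change of -0.51 (SE 0.07, adjusted p = 0.00116); it was singled out after its value was seen. GPT2 (-0.92), the mitochondrial alanine transaminase, and PCK2 (-0.79), the mitochondrial form of phosphoenolpyruvate carboxykinase, were among the 15 largest falls. TGATGNAA, the CCAAT/enhancer and ATF composite sequence, was on either strand in 5 of 30 promoters of this list (16.7%). It was in 3.19% of all promoters and 1.41% of those of genes tested. Among all genes that fell the share was 2.29%, and among those that rose 2.33%. Of the 5 promoters 3 belonged to the 16 members that fell and have a window.

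Not every stress target passed. SLC7A11, the cystine carrier, stood at 9.5 and 3.73 CPM with the control guide, 1.82 and 1.86 with guide 1, and 2.41 and 3.71 with guide 2, with the first control library far above the second, and was not called (-1.48, adjusted p = 0.106). DDIT3 (-0.56, adjusted p = 0.442) and TRIB3 (-0.92, adjusted p = 0.41), 2 stress-induced regulators, were not called either. The remaining genes of the 15 largest falls had varied roles. RHBDL3, a rhomboid-like protein, stood at 17 and 13.4 against 7.64, 7.11, 9.13 and 6.29 CPM (-1.01). IL2RA, the alpha chain of the interleukin-2 receptor, stood at 13.7 and 12.2 against 5.66, 6.72, 6.98 and 9.81 CPM (-0.85). GRB10, an adaptor that restrains insulin signalling, changed by -0.83, and IRX3, a homeobox gene, by -0.83. PRDM8 (-1.02) lost its call without the second control library (adjusted p = 0.078). An RNA known only as ENSG00000227706 (chromosome 6, 67887646 to 67889339) stood at 143 and 148 against 80.6, 74.9, 94.7 and 80.4 CPM (-0.82).

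Genes on the list of ribosome biogenesis and nucleolar MYC targets shifted together by small amounts. Of 41 measured, 27 fell and 0 rose, with a median of -0.28, and 40 of the 41 had all ENL guide libraries below both controls, against 19.3% of all genes tested. BOP1 and NIP7, processing factors of the large subunit, were at -0.41 and -0.35. MRTO4, a factor of the large subunit stalk, was at -0.38, and the pseudouridine synthase PUS1 at -0.48. PUS1 stood at 83.1 and 88.3 CPM with the control guide, 59.7 and 62.1 with guide 1, and 61.4 and 63 with guide 2 (adjusted p = 0.00028). The count rested on single libraries: 5 fell without the second control library, 14 without the first guide 1 library, 15 without the first guide 2 library and 8 without the second, while 36 fell without the first control library. BOP1, for example, stood at 249.6 and 297 against 202, 210.3, 205 and 206 CPM, with the second control library above the first. Of 46 cytosolic ribosomal protein genes, 0 rose and 0 fell in edgeR at a median of 0.006; 0 had an unadjusted p below 0.05, and DESeq2 called 0.

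Of 42 genes of DNA replication and S phase 8 fell and 0 rose. UHRF1, the reader of hemimethylated DNA, changed by -0.45, and RRM2, a subunit of ribonucleotide reductase, by -0.34, at 139 and 141 against 108, 106, 116 and 112 CPM (adjusted p = 0.00176). CDC6 (-0.31) and MCM10 (-0.32), which load and start the replicative helicase, lost their calls without the second control library (adjusted p of 0.0612 and 0.107), and MCM10 also without the second guide 2 library (0.054). The S phase count was 2 without the second control library, 3 without the second guide 2 library and 19 without the first control library. Of all genes tested 4.98% fell. Of 35 mitosis genes, 3 fell and 0 rose: the separase ESPL1 (-0.27), the centromere histone CENPA (-0.26) and the anaphase activator CDC20 (-0.29). Their count was 10 without the first control library, 1 without the second control library or either guide 1 library, and 0 without the second guide 2 library. CDC20 had an adjusted p of 0.309 without the second control library. MKI67, the proliferation antigen, was at -0.10 (adjusted p = 0.364).

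Among cell cycle inhibitors and cyclins, CDKN1A (p21) rose and CDKN1B (p27) fell. CDKN1A stood at 192 and 190.2 CPM with the control guide, 283 and 268 with guide 1, and 264 and 274 with guide 2, a change of 0.51 (SE 0.06, adjusted p = 0.00024). CDKN1B stood at 94 and 86.4 CPM with the control guide, 62 and 58.2 with guide 1, and 66.6 and 58.3 with guide 2, a change of -0.56 (SE 0.07, adjusted p = 0.00031). In both genes the groups were apart, in opposite directions. CCND1 (-1.24) was at 0.332 to 1.13 CPM and lost its call without the first control library (adjusted p = 0.0752), and CDK4 (-0.24) lost its call without any 1 of 5 libraries, the first control library being the exception (adjusted p of 0.0517 to 0.274). Of 27 measured p53 targets 7 rose and 0 fell, CDKN1A and TP53INP1 (0.60, adjusted p = 0.00194) with the smallest adjusted p. The p53 count was 2 without the second guide 2 library and 4 without the first. DDB2 (0.25) and PLK2 (0.45) lost their calls without single libraries, with adjusted p of up to 0.0758 and 0.0745. MDM2, the ligase that p53 induces, was at 0.08 (adjusted p = 0.457). BMF, a death-promoting BCL2 relative, was the 1 member of 15 in its family to rise, where 5.32% of all genes tested rose. It stood at 51.5 and 42.4 against 81.9, 72.3, 77.1 and 71.4 CPM, a change of 0.69 (SE 0.09, adjusted p = 0.00072). In its family 2 rose and 2 fell without the first control library, and 2 rose without the second.

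**Figure D2:**
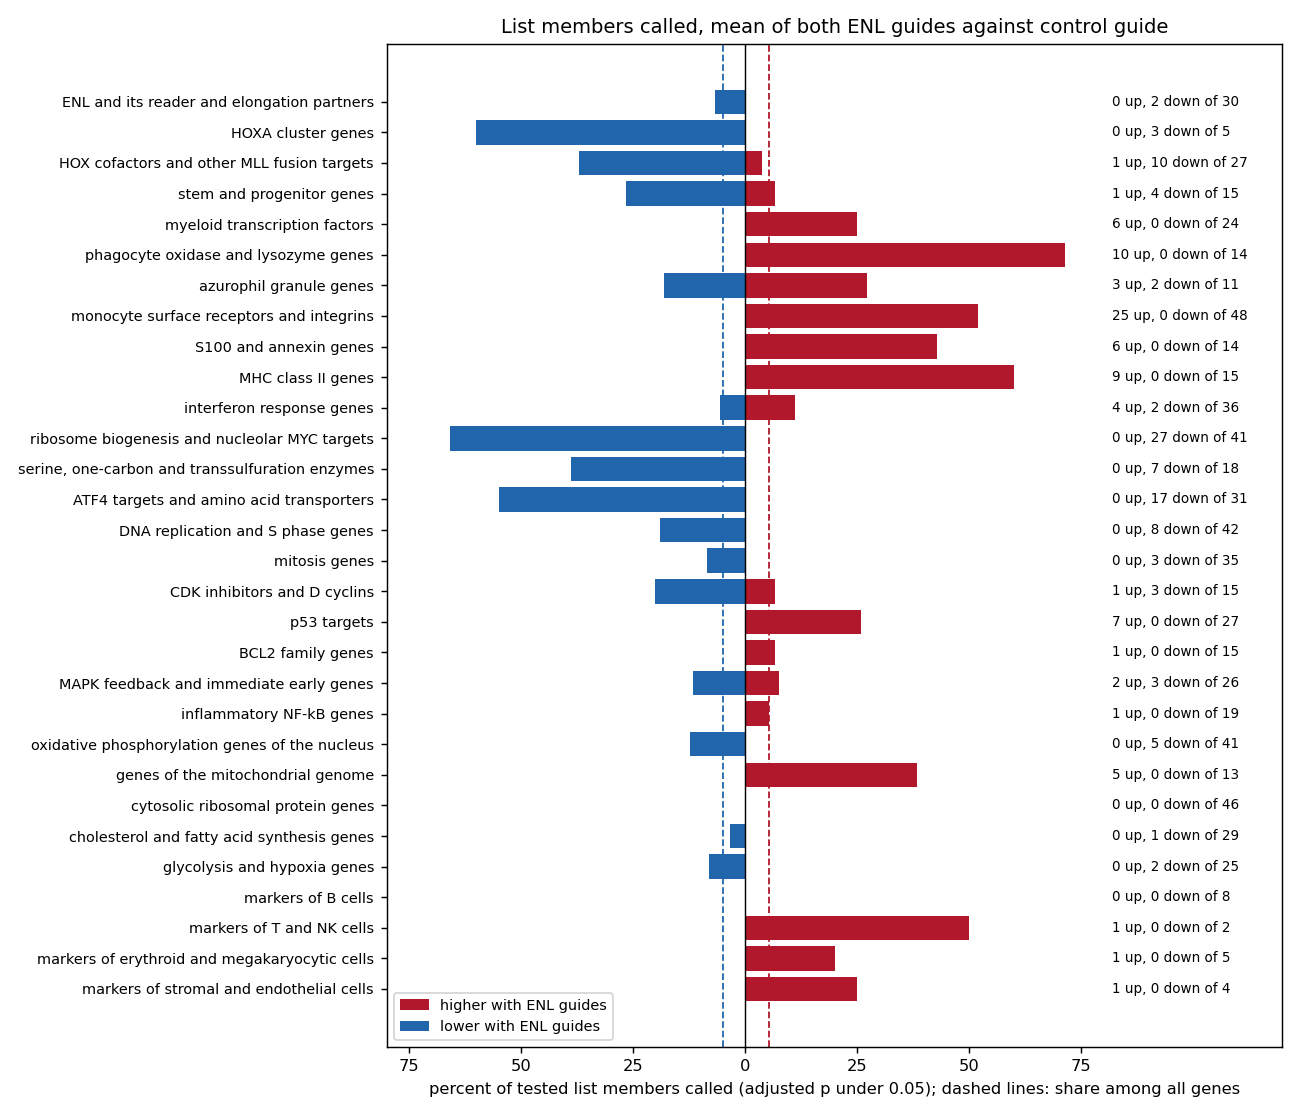
Bars show, for each gene list, the percent of its tested members called higher (red, right) or lower (blue, left) with the mean of both ENL guides, and dashed lines the shares among all genes tested, 5.32% higher and 4.98% lower; counts stand at the right. Monocyte, oxidase and MHC class II lists reach to the right, and HOXA, ribosome biogenesis and ATF4 lists to the left.

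Of 36 measured interferon response genes 4 rose and 2 fell. Of all genes tested 5.32% rose and 4.98% fell, the shares to set beside every count in this paragraph. Without the second control library 2 rose and 7 fell, and without the second guide 2 library 2 rose and 1 fell; without the first control library the count that rose was 6, and 1 fell. TRIM22 rose by 0.56 (adjusted p = 6.8e-05), at 109 and 108 against 164, 161, 157 and 158 CPM, and SAMD9L by 0.90. IFITM2, a restriction factor of virus entry, fell (-0.29), and IFITM3 (-0.30) lost its call without the first control library (adjusted p = 0.121) or the second library of either ENL guide (0.0669 and 0.11). Of 19 measured inflammatory NF-kB genes 1 rose, a share near the 5.32% of all genes tested (5 rose without the first control library). It was the chemokine CXCL8 (0.95, adjusted p = 0.0036), at 1.56 and 1.4 against 2.71, 2.94, 2.86 and 2.97 CPM. Among MAPK feedback and immediate early genes 2 rose and 3 fell of 26 (5 rose without the first control library): JUND (-0.62), an AP-1 subunit, and ETV4 (-0.92) fell, whereas IER5 (0.31) rose.

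Of 13 genes of the mitochondrial genome 5 were higher, with a median of 0.35, and this list moved with the mitochondrial share of counts given above. MT-ND1 was at 1676 and 1821 against 2373, 2511, 2148 and 2315 CPM, a change of 0.42 (SE 0.08, adjusted p = 0.00457). MT-ND4 (0.38) and MT-ND2 (0.34) lost their calls without the first control library or the second library of either ENL guide (adjusted p of 0.103 to 0.131), and only 1 of the 13 was called in each of these settings, whereas 10 were called without the filter on low counts. Nuclear genes of oxidative phosphorylation went the other way, with 5 of 41 lower, ATP5F1D (-0.33, adjusted p = 0.00387) first among them; the count was 1 without the second control or the second guide 2 library, 2 without any other ENL guide library and 10 without the first control library. FASN, the fatty acid synthase, was the 1 gene of 29 in lipid synthesis to fall (-0.40, adjusted p = 0.00511), where 4.98% of all genes tested fell; 4 fell without the first guide 1 library. In glycolysis and hypoxia 2 of 25 fell, LDHA and the glucose carrier SLC2A1; 0 fell without the second guide 1 library or either guide 2 library, 1 without the first guide 1 library and 4 without the first control library.

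Markers of other cells were measured beside these lists. Of the B-cell list 8 of 16 genes had enough counts and 0 were called in edgeR (2 had an unadjusted p below 0.05, and DESeq2 called 0); the list summed to 18.9 and 21.1 CPM in the control libraries and 14.4 to 17.6 in the ENL guide libraries, which do not overlap. In the other marker lists the sums also separated, and 1 gene in each carried most of the difference. T and NK cell markers (2 of 18 tested) summed to 35.2 and 38.1 CPM in the control libraries and 46.8 to 57.9 in the ENL guide libraries. Erythroid and megakaryocytic markers (5 of 18 tested) summed to 31.5 and 36.1 against 43.3 to 50.2, and stromal and endothelial markers (4 of 14 tested) to 120.1 and 130 against 170.9 to 178.4. The part of such cells in the results was not tested. Of the defining markers CD3D, CD3E, HBB and HBA1 none had enough counts to be tested. The 3 marker genes that rose were NKG7 (0.57), a granule protein of cytotoxic cells, ITGA2B (0.92), the platelet integrin chain, and PECAM1 (0.50), an adhesion molecule that monocytes also carry, 1 from each of these lists. ITGA2B stood at 14.2 and 12 against 29, 25.5, 22.9 and 22.6 CPM, while the median of the 5 tested genes of its list was -0.12.

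Since 1 pair of control libraries served both ENL guides, their values are set side by side and not correlated. Guide 1 called 1346 genes (7.48% of genes tested; 782 or 4.35% higher, 564 or 3.14% lower) and guide 2 888 (4.94%; 572 or 3.18% higher, 316 or 1.76% lower). Of these 833 were called for both, 513 for guide 1 alone and 55 for guide 2 alone. These counts rested on single libraries: guide 1 called 677 without its first library, 596 without its second and 2191 without the first control library, and guide 2 called 426, 269 and 1874 in the same order. A direct test of guide 2 against guide 1 called 0 genes (0%) in edgeR, with 261 at an unadjusted p below 0.05, and 1 gene in DESeq2. Over 658 called genes that were higher, at a level of at least 3 on the log2 CPM scale and with all libraries apart, the median change was 0.45 with guide 1 and 0.40 with guide 2. Over 807 such genes that were lower the medians were -0.31 and -0.28. Guide 1 had the larger change in 1094 of the 1465, a description that was not tested.

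MLLT1 had a log2 difference, guide 2 minus guide 1, of -0.57. Both guides are shown singly because of this known difference, so it is a description and no test of it is given. The 1 gene that DESeq2 called between the guides is MLLT1, so that call adds nothing to the description. CD36 had the lower value with guide 2 (-0.27, unadjusted p = 0.0059), and so did ADA2, a secreted adenosine deaminase of monocytes (-0.24), and GLIPR1 (-0.23). ADA2 stood at 28.9 and 28.8 CPM with the control guide, 89.2 and 86.6 with guide 1, and 76.5 and 71.9 with guide 2, so both guides lay above the control. JUND (0.33), IRX3 (0.23), the glutamine synthetase GLUL (0.24) and the glycogen branching enzyme GBE1 (0.27) had the higher value with guide 2. IRX3 stood at 137 and 150.2 CPM with the control guide, 74.5 and 74.8 with guide 1, and 86 and 89.3 with guide 2; both guides lay below the control. From CD36 on, none of these genes passed the test between the guides (adjusted p of 0.9999 in edgeR).

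**Figure D3:**
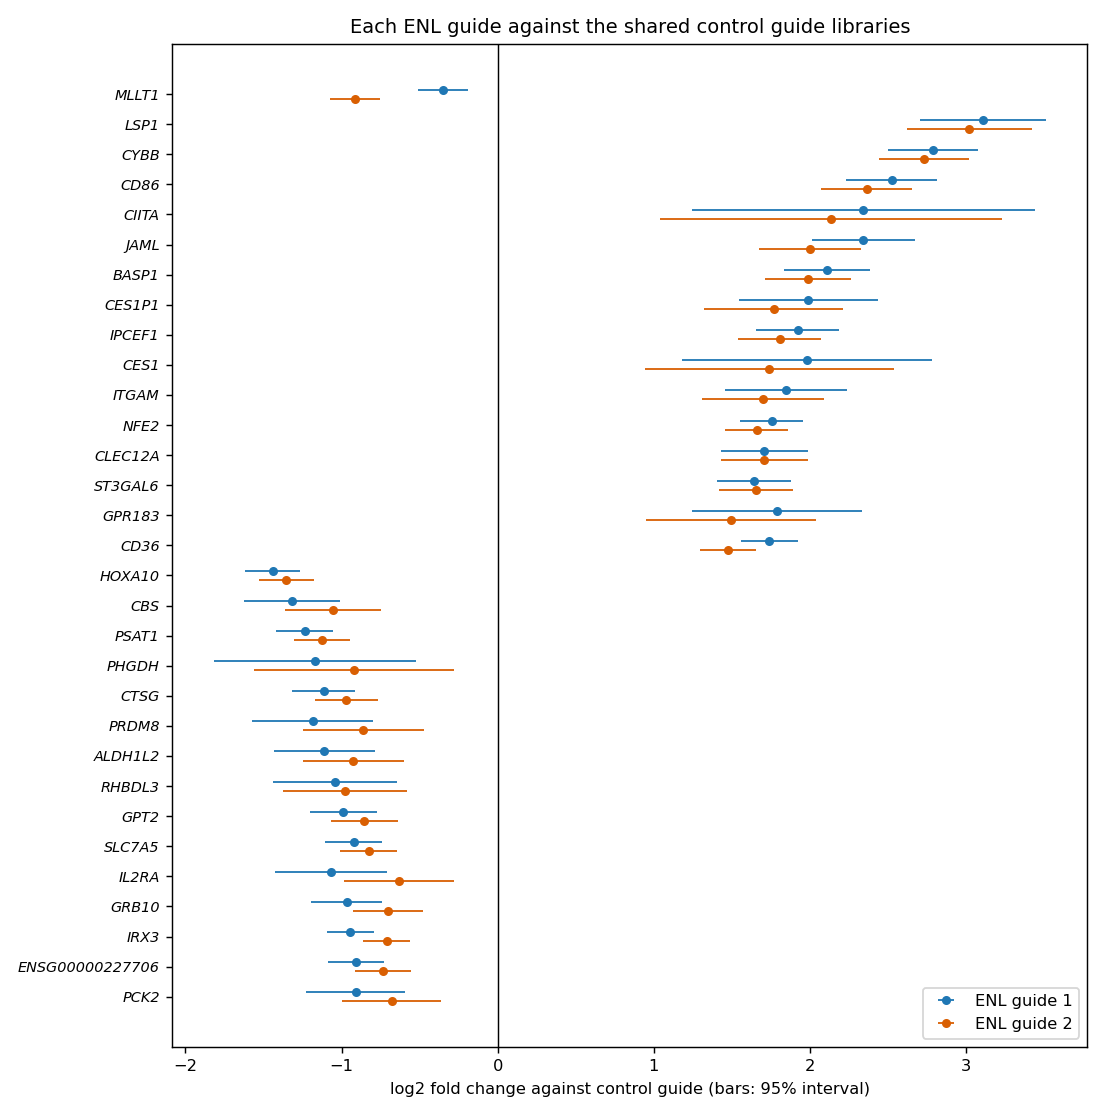
Points give the log2 fold change of each ENL guide against the shared control libraries for MLLT1 and the 15 largest rises and 15 largest falls, with 95% intervals. For MLLT1 the guide 2 point lies to the left of the guide 1 point, the known difference for which both guides are shown. The intervals of the guides overlap for the other 30 genes.

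The guide effect was then set against that of MS41 at 24 h, fitted together over 12 libraries (21158 genes tested). The 2 effects share no library. The times since ENL was removed are not matched, since that of the guides is not given. MS41 called 8515 genes (40.2%; 19.3% higher and 20.9% lower) and the guides 4054 in this fit (19.2%; 6.41% higher and 12.7% lower), and the difference between the effects was called for 2507 (11.8%; 998 or 4.72% with the guides above MS41 and 1509 or 7.13% below). That split depended on the scaling: 39.8% of these calls had the guides above, against 53.3% with DESeq2's size factors, 54.1% with the DESeq2 test and 52.6% with the GC trend removed. It also turned with single libraries. The share with the guides above was 70.6% to 74.1% without any 1 DMSO library, 69.5% to 76.1% without any 1 MS41 library, 69.3% without the first guide 1 library, and 72.3% without the second control library, where 3889 genes were called. Without the first control library it was 32%, so the direction of this split is not settled by these libraries.

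Of the 957 that rose with the guides 881 (92.1%) were called higher with MS41 and 4 lower, where 21.5% of all genes tested in both were called higher. Of the 896 that fell 818 (91.3%) were called lower with MS41 and 5 higher, where 24.2% of all genes were. In the other direction, 22.8% of the 3860 genes raised by MS41 and 18.8% of the 4349 lowered by it were called the same way with the guides. Effects differed for 409 of the 957, with the guide effect smaller in 380 and larger in 29. For the falls they differed in 352, smaller in 312 and larger in 40.

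Of 52 receptors and integrins 31 had a guide effect below that of MS41 and 0 above, with a median difference of -0.57. CYBB was at 2.72 with the guides and 5.71 with MS41, a difference of -2.99 (adjusted p = 4.3e-13). CD86 (2.40 and 5.41), ITGAM (1.73 and 3.52) and the Toll-like receptor TLR6 (1.16 and 3.39) had the same order. The complement gene C3 was at 0.96 with the guides and 4.11 with MS41 (difference -3.15, adjusted p = 1.3e-05). For ribosome biogenesis and nucleolar MYC targets 41 of 41 genes fell with MS41, and for 30 the guide effect was closer to 0 (median difference 0.35). PITX1 (-0.81 and -1.52) and CTSG (-1.08 and -1.95) likewise fell more with MS41.

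The annotated spans of HOXA9 and HOXA10 overlap, so a contrast between these genes is uncertain. HOXA9 was at -0.78 with the guides and -1.5 with MS41, a difference of 0.72 (adjusted p = 1.5e-07). HOXA10 was at -1.44 and -1.53, a difference of 0.09 (95% interval -0.08 to 0.26; adjusted p = 0.579). The difference was not called for some other large rises either. NFE2 was at 1.67 and 1.96 (difference -0.29, 95% interval -0.51 to -0.07, adjusted p = 0.0826) and CLEC12A at 1.67 and 1.77 (difference -0.10, 95% interval -0.39 to 0.18, adjusted p = 0.735). CIITA was at 2.20 and 2.57, with a difference of -0.37 (95% interval -1.19 to 0.45, adjusted p = 0.623).

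Amino acid genes did not all keep that order. PCK2 was at -0.83 with the guides and 0.14 with MS41, a difference of -0.97 (adjusted p = 5.7e-05). CTH was at -1.10 and -0.14 (difference -0.96, adjusted p = 0.00488), a call lost without the first control library (-0.55, adjusted p = 0.132). PHGDH was at -1.09 and -0.23 (difference -0.85, adjusted p = 0.0246), lost without either control library, any DMSO library or any MS41 library (adjusted p of 0.0861 to 0.149). SLC7A11 was at -1.53 with the guides, where it is not called in the fit of the guides alone, and 2.5 with MS41 (difference -4.03, adjusted p = 0.00093). PSAT1, in contrast, was at -1.22 and -1.11 (difference -0.11, adjusted p = 0.402), and PYCR1, of proline synthesis, fell more with MS41 (-0.66 and -1.33). ENSG00000227706 was at -0.86 and -0.14 (adjusted p of the difference = 2.7e-06).

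Among the 5 genes with the guide effect furthest above that of MS41 was CDK6-AS1. CDK6-AS1, an RNA antisense to the kinase gene CDK6, was at -0.73 with the guides and -2.25 with MS41 (adjusted p of the difference = 1.7e-07); without a stated strand setting its counts cannot be separated from those of CDK6. PLXNA1, a semaphorin receptor, was at -0.60 and -1.53, and CGREF1 at -0.37 and -1.32. MLLT1 transcript was at -0.67 with the guides and -0.26 with MS41 (difference -0.41, adjusted p = 0.00018); a degrader acts on the protein.

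**Figure D4:**
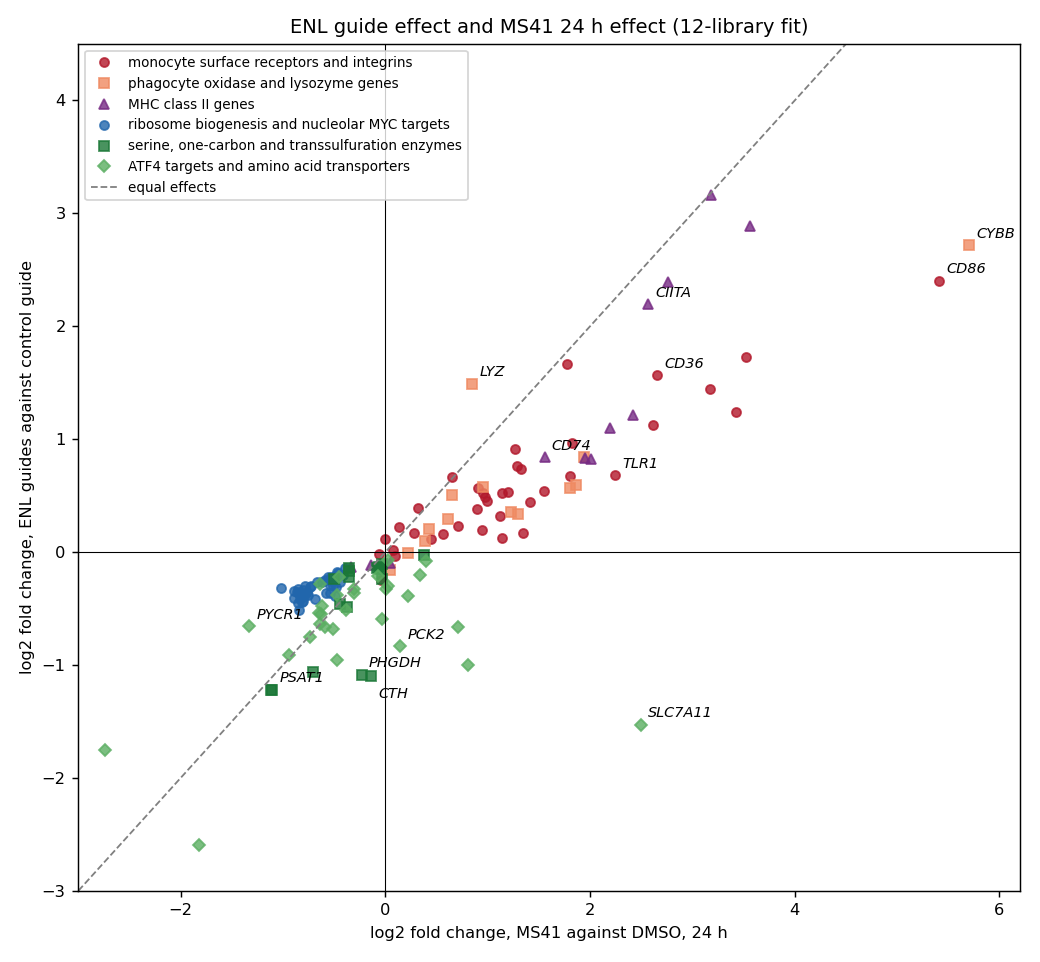
Each point is a gene of 6 lists, with the log2 fold change of MS41 against DMSO at 24 h on the horizontal axis and that of the ENL guides on the vertical axis, both from the 12-library fit; the dashed line marks equal effects. CYBB and CD86 lie far below the line at the right, and SLC7A11 and PCK2 lie on opposite sides of 0 in the 2 comparisons.

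A guide directs a cut in the chromosome, so genes beside MLLT1 were examined. MLLT1 lies in the short arm of chromosome 19. Between it and the end of the short arm 184 genes were tested, and 38 fell (20.7%) while 3 rose, with a median of -0.13. On the rest of chromosome 19 66 of 1127 fell (5.86%, median -0.03), and on all other chromosomes 4.74% of 16672 fell (median 0.001). The median between MLLT1 and the chromosome end was -0.14 with guide 1 and -0.11 with guide 2. With the GC trend removed it was -0.07 for the mean of both, against -0.03 on the rest of the chromosome. MS41, a small molecule, gave -0.14 for the same genes, with 77 of the 184 lower (41.8%) against 23.9% on other chromosomes, and -0.03 with the GC trend removed. The part of the cut in the values near MLLT1 was not tested. Within 500 kb of MLLT1 the called genes were DUS3L (-0.36), CLPP (-0.36), GTF2F1 (-0.20) and KHSRP (-0.27), which fell, and CD70 (0.69) and TNFSF14 (0.74), 2 ligands of the TNF family, which rose. CLPP, a mitochondrial protease, stood at 103 and 111 CPM with the control guide, 81.6 and 82.2 with guide 1, and 87.3 and 82.8 with guide 2. GTF2F1 and KHSRP lost their calls without any 1 library other than the first control library (adjusted p of 0.11 to 0.284 and 0.0512 to 0.134), and CD70 without either control library or the second guide 1 library (0.0639 to 0.214).

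**Figure D5:**
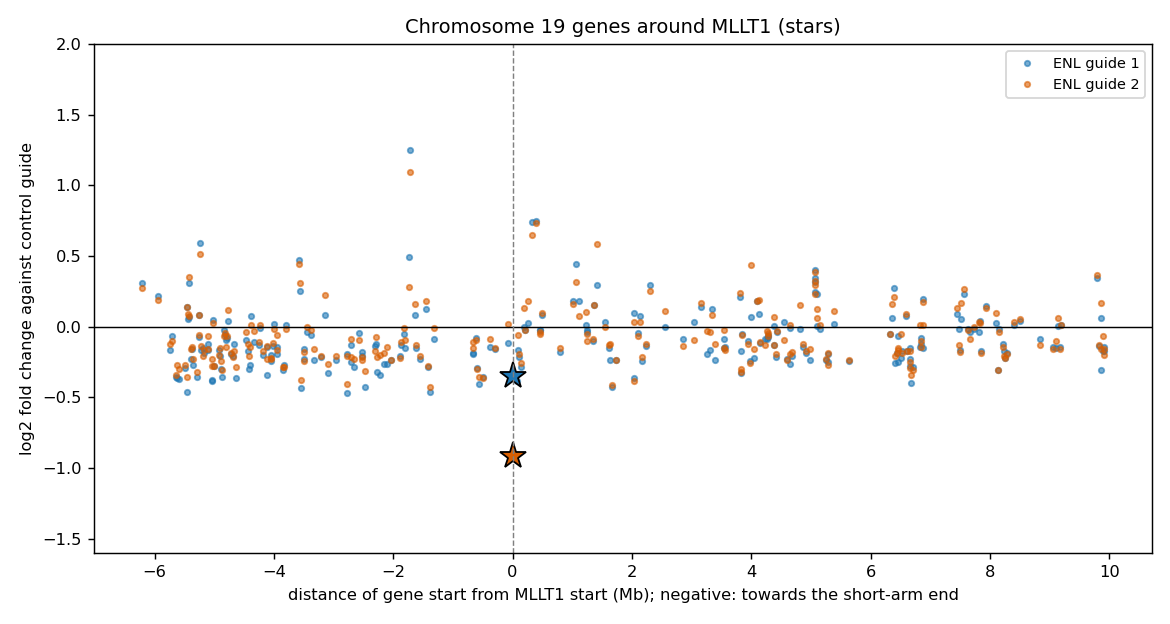
Points are genes of chromosome 19 with an average log2 CPM of at least 3, plotted by the distance of their start from that of MLLT1 (horizontal axis, Mb) and their log2 fold change with guide 1 (blue) or guide 2 (orange); stars mark MLLT1. On the negative side, towards the chromosome end, 92 of 112 genes lie below 0 with guide 1 and 92 with guide 2, and on the positive side 92 and 89 of 140 do.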

How the data were processed

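PolyA RNA was sequenced, and the read counts per gene are those deposited by the authors. Per the submitters' processing notes the reads passed through CASAVA 1.8, HISAT2 2.1.0 and HTSeq 0.11.3 on hg38. The strand setting and annotation are not given in the sources used here, so antisense and overlapping genes cannot be separated. All 58721 gene IDs matched GENCODE 29, which gave symbols and positions on GRCh38. Low genes were removed with filterByExpr, libraries were scaled by TMM, and groups were compared with the robust quasi-likelihood test of edgeR 4.0.16 in R 4.3.3, without a replicate block, with Benjamini-Hochberg adjustment and a threshold of 0.05. The 6 guide libraries were fitted together, and then with the 3 DMSO and 3 MS41 libraries for the difference between effects. Alternatives were other scalings, no filter, DESeq2 1.42.0, a replicate block, removal of a GC trend, fits on fewer or more libraries, and leaving out each library in turn.

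The genes named were MLLT1 and its called partners, the 15 largest rises and falls among called genes with a log2 CPM of at least 3 and libraries that do not overlap, the called members of each list with the smallest adjusted p (up to 4, and any member of the HOXA, MHC class II, oxidase, granule and serine lists), the 5 genes per direction with the smallest p between guides, the 5 per direction with the largest difference from MS41 and genes within 500 kb of MLLT1; other members named, such as uncalled ones, TYROBP and TLR4, were chosen after their values were seen. A few list members are counted but not reported here by name. Members and lists were chosen with earlier results of these data known. No 2 libraries of a guide were copies of each other. Counts were simulated for 17657 genes in the guide comparison. Of these 99 were changed by 1 on the log2 scale and 98 by 0.5, alike for both ENL guides. Recovery was 68.7% and 53.1%, and 7.69% of the 130 calls were false. The data held 1853 calls, so the share recovered in the data may differ. Promoters are RefSeq windows on GRCh38.p14. Figures were drawn with matplotlib 3.10.9 in Python 3.11.15.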

Additional observations from a re-analysis of the deposited data

How the results depend on the processing

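MLLT1 fell with the mean of both guides, and was called, in every setting, from -0.72 to -0.54 when a library was left out. Without the filter on low counts 2803 genes were called for both guides, 2304 for guide 1, 1835 for guide 2 and 15 between guides. CES1, CIITA, LYZ and PHGDH were the named genes that lost their calls in that setting. DESeq2 called 1339 for guide 2 and 1 between guides. It covered 198 of the 204 named genes called for both guides. A call kept in every setting, as counted below, can therefore leave out that test. With a replicate block, which pairs libraries by number, 3203 were called for both guides, 2578 for guide 1, 1932 for guide 2 and 1 between guides; the block left the difference from MS41 at 2853. The block raised the count of mitochondrial genes called from 5 to 12 of 13, and GPR183 alone of the named genes lost its call under it (1.64, adjusted p = 0.0743). Same-numbered libraries had correlated deviations of 0.238 (control and guide 1), 0.021 (control and guide 2) and 0.105 (both ENL guides), and the labels do not say that a number marks a shared culture. The 12-library fit called 4054 for both guides, 33.5% of them higher. Leaving out each library gave 940 to 2621 calls for both guides, 596 to 2191 for guide 1, 269 to 1874 for guide 2, 0 to 3 between guides and 1860 to 3889 for the difference from MS41. The share of calls that were higher was 51.6%, but 42.4% without the first control library, 63.8% without the second and 66.9% without the second guide 2 library. For the difference from MS41 the share was 39.8%, 54.1% with DESeq2, 69.3% to 76.1% without any DMSO or MS41 library, the second control library or the first guide 1 library, and 32% to 46.6% without any other. The cause of these moves was not tested.

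Of 204 named genes called for both guides 114 kept the call in every setting, 89 lost it without at least 1 library, and 0 changed sign. The second control library (67 lost) and the second guide 2 library (64) mattered most among the 6. With 2 libraries a guide and 3 residual degrees of freedom, small changes were not detectable for many genes: the simulation recovered 53.1% of changes of 0.5 on the log2 scale.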
